A study of Mus musculus with 18 samples.

Results

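The contractile apparatus of smooth muscle is described here through 10 genes, Acta2, Actg2, Tagln, Cnn1, Cnn2, Cald1, Tpm1, Tpm2, Myl9 and Myh11, out of 51499 loci in the deposited expression table. The genes were chosen by their symbols, with their levels in these same data already known, so those levels are given as a description and without a test. RNA was sequenced from mouse embryonic fibroblasts (MEF), connective tissue cells grown from embryos, in 18 libraries, 3 for each of 6 groups. The groups were labelled Ago2+/+ or Ago2-/-, for the presence or loss of the slicing enzyme AGO2, and each genotype received the solvent DMSO, tunicamycin, an inhibitor of protein N-glycosylation, or 500 nM thapsigargin, an inhibitor of the calcium pump of the endoplasmic reticulum. They are named Ago2+/+ DMSO, Ago2+/+ tunicamycin, Ago2+/+ thapsigargin, Ago2-/- DMSO, Ago2-/- tunicamycin and Ago2-/- thapsigargin. The part of Ago2 deleted in the knockout cells, and whether each genotype is a single clone, are not stated in the sources at hand, and the study reports that its lines had not been authenticated, although the absence of AGO2 protein from the Ago2-/- cells had been checked by western blot. The level of a gene is its FPKM, the sequenced fragments of its transcripts divided by their length and by the size of the library, a scale on which genes of different length can be compared. The authors' value is a single pooled estimate for each group, so it carries no spread between libraries, and the depth behind it is unknown.

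Smooth muscle cells shorten when myosin filaments pull on actin filaments, and they use forms of actin, tropomyosin, calponin and myosin light chain that most other cells make at low levels. Fibroblasts also switch many of these genes on when they turn into myofibroblasts, the contractile cells of healing wounds, in which Acta2 is the customary marker. Many of the genes are targets of serum response factor (SRF), which binds a short DNA element called the CArG box and works with the coactivators myocardin and the myocardin-related factors Mkl1 and Mkl2.

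The labels have to be read with care. Ago2 itself stood at 22.1 FPKM with DMSO, 5.75 with tunicamycin and 17.0 with thapsigargin in the groups labelled Ago2+/+, against 5.61 with DMSO, 15.5 with tunicamycin and 20.7 with thapsigargin in the groups labelled Ago2-/-. The targeted gene therefore did not separate the genotypes as labelled. The Y-linked gene Ddx3y was at 23.3 FPKM in Ago2+/+ thapsigargin and 24.7 in Ago2-/- tunicamycin, and was listed at 0 in the other 4 groups. The locus that holds Xist, the RNA that silences an X chromosome in female cells, stood at 46.6 FPKM in Ago2+/+ DMSO and 33.5 in Ago2-/- thapsigargin, and at or below 0.0574 in the other 4 groups. By these genes the 6 groups made 3 pairs that cross both labels, namely Ago2+/+ thapsigargin with Ago2-/- tunicamycin, Ago2+/+ tunicamycin with Ago2-/- DMSO, and Ago2-/- thapsigargin with Ago2+/+ DMSO. The groups labelled Ago2+/+ are called DCR1 in the library titles, for a reason that is not given. In addition, 4 libraries carry conflicting genotype labels, and the pooled values do not let them be left out. Each direction given below is therefore one between groups as labelled.

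The cells carried some fibroblast markers and lacked others. Of 11 fibroblast markers, Vim, an intermediate filament protein of mesenchymal cells, was lowest in Ago2-/- tunicamycin, at 952 FPKM, and highest in Ago2+/+ tunicamycin, at 2634. Thy1, a surface marker of many fibroblasts, was listed at 0 in all 6 groups, and the matrix proteoglycan Lum did not exceed 0.0138 FPKM. Endothelial markers summed to between 0.210 and 0.530 FPKM over 5 genes, and the 5 macrophage markers to between 3.68 and 17.9 FPKM. Of the latter, Adgre1 was listed at 0 throughout, Cd68 lay between 1.13 and 1.82 FPKM, and Cd14 between 2.40 and 16.7. In pooled cells such as these, fewer cells of a type and less RNA per cell cannot be told apart.

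Promoter sequence is shown because many genes of this kind are known SRF targets. Windows from 250 bases before to 50 bases after the RefSeq start (build GRCm38.p6) were at hand for 7 of the 10 genes, with 2 windows for Cald1, and Tagln, Myh11 and Actg2 had none in the table. The CArG box was searched as its usual 10-base pattern, which reads alike on both strands, and a CArG-like box was allowed a single G or C in its 6-base core. The exact box was present in 1.63% of all 32851 promoter windows of this length, and the CArG-like box, which includes it, in 9.98%. Among the 7 genes, 2 held an exact box, Cnn2 and Myl9, and Acta2 held 2 CArG-like boxes. The windows of these 3 genes are printed because they carry every such box that was found, and that of Cnn1 because it belongs to the genes that were nearly silent in 4 groups and carries none. CArG-like boxes are in capitals, and all lines read 5′ to 3′ along the gene.
Acta2, chr19:34255324-34255623, minus strand: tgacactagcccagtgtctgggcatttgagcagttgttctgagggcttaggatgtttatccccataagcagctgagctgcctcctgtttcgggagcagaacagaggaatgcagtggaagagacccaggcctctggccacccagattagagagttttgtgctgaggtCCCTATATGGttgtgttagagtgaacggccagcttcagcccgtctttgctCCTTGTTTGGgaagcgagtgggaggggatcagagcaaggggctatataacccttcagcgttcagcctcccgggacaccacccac
Myl9, chr2:156775214-156775513, plus strand: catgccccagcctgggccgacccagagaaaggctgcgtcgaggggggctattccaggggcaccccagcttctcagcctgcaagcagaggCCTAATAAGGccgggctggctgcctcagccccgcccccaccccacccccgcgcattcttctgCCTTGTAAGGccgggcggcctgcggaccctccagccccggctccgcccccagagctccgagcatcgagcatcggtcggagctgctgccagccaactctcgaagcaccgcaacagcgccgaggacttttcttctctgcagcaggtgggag
Cnn2, chr10:79988350-79988649, plus strand: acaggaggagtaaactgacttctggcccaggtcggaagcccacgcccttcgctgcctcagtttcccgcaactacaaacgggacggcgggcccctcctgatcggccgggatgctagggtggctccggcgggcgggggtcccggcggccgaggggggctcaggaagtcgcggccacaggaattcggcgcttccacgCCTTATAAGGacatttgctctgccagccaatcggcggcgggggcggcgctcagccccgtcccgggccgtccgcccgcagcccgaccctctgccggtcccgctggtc
Cnn1, chr9:22099003-22099302, plus strand: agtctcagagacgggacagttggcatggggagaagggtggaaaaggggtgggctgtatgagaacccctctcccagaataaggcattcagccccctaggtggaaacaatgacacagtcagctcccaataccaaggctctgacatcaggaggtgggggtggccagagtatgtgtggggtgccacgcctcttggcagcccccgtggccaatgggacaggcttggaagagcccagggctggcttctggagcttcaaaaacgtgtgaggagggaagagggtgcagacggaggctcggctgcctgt
The boxes of Acta2 began 84 and 34 bases before the start. In Myl9 the exact box began 161 bases before the start, and the CArG-like box 99 bases before it. The exact box of Cnn2 began 56 bases before the start. The other 2 motifs searched on both strands were CATTCC, the MCAT element, in 14.7% of all windows, and TATAAA in 13.6%. MCAT was found in Acta2 at 146 bases, in Tpm1 at 56 bases and in the more distal Cald1 window at 153 bases before the start, and TATAAA in the other Cald1 window at 186 bases. None of these overlapped a CArG-like box. A match is a run of letters and not a shown binding site, and an absent match speaks only of these 300 bases.

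**Figure D1:**
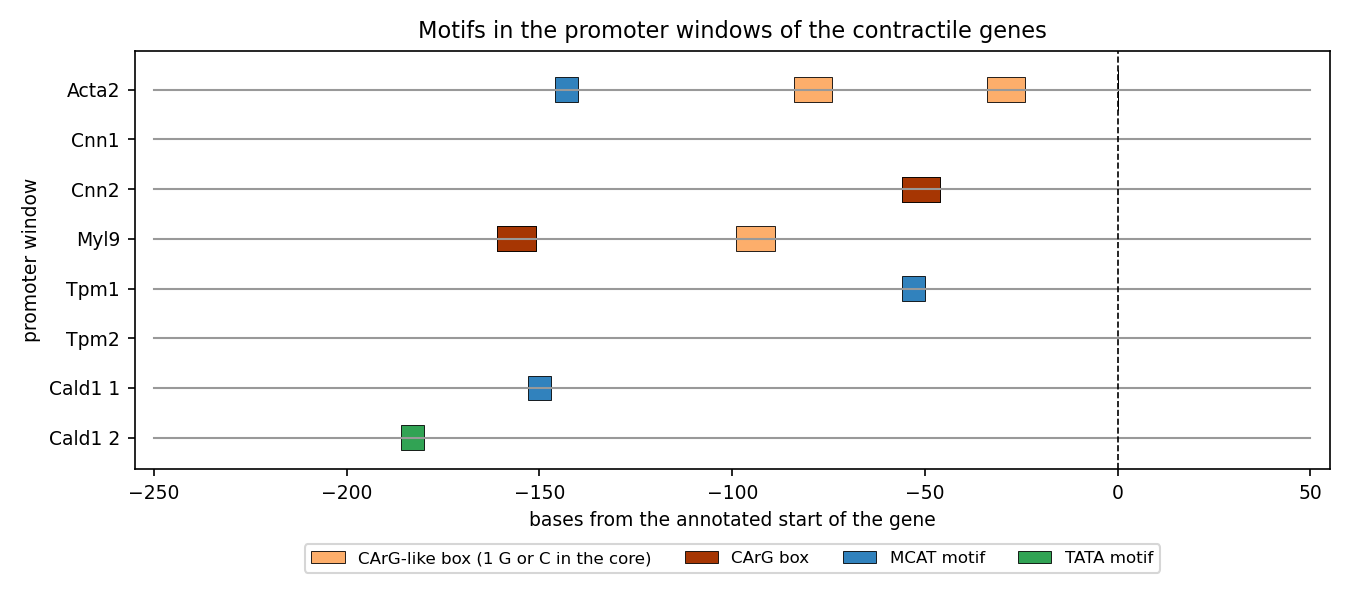
Position of motif matches in the 8 promoter windows of 7 contractile genes, in bases from the annotated RefSeq start (dashed line); boxes are drawn to scale, and Cald1 has 2 windows. CArG or CArG-like boxes lie in Acta2, Cnn2 and Myl9, while the windows of Cnn1 and Tpm2 hold none of the 4 motifs.

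The contractile genes were at their highest in the same pair of groups, whose labels share neither genotype nor treatment. For 9 of the 10 genes the highest FPKM was in Ago2+/+ thapsigargin and the next in Ago2-/- tunicamycin, the exception being Myh11. Over all 11929 loci whose mean reached 1 FPKM, 26.0% had their 2 highest values in those 2 groups in either order. Those 2 groups were picked as the ones with the highest summed level of these same genes. The count therefore describes the genes, and the share beside it is no test. Cnn1, Myl9 and Actg2 also reached a mean of 1 FPKM only through those 2 groups. Summed over the 10 genes, the level was 439.5 FPKM with DMSO, 833 with tunicamycin and 4786 with thapsigargin in the groups labelled Ago2+/+. In the Ago2-/- groups the sum was 865 FPKM with DMSO, 3884 with tunicamycin and 499 with thapsigargin. The 2 groups with the highest sums are those in which Ddx3y was detected. The order of the other 4 groups differed from gene to gene, and with a single value per group it cannot be said which neighbours in the order differ beyond the spread of the libraries.

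**Figure D2:**
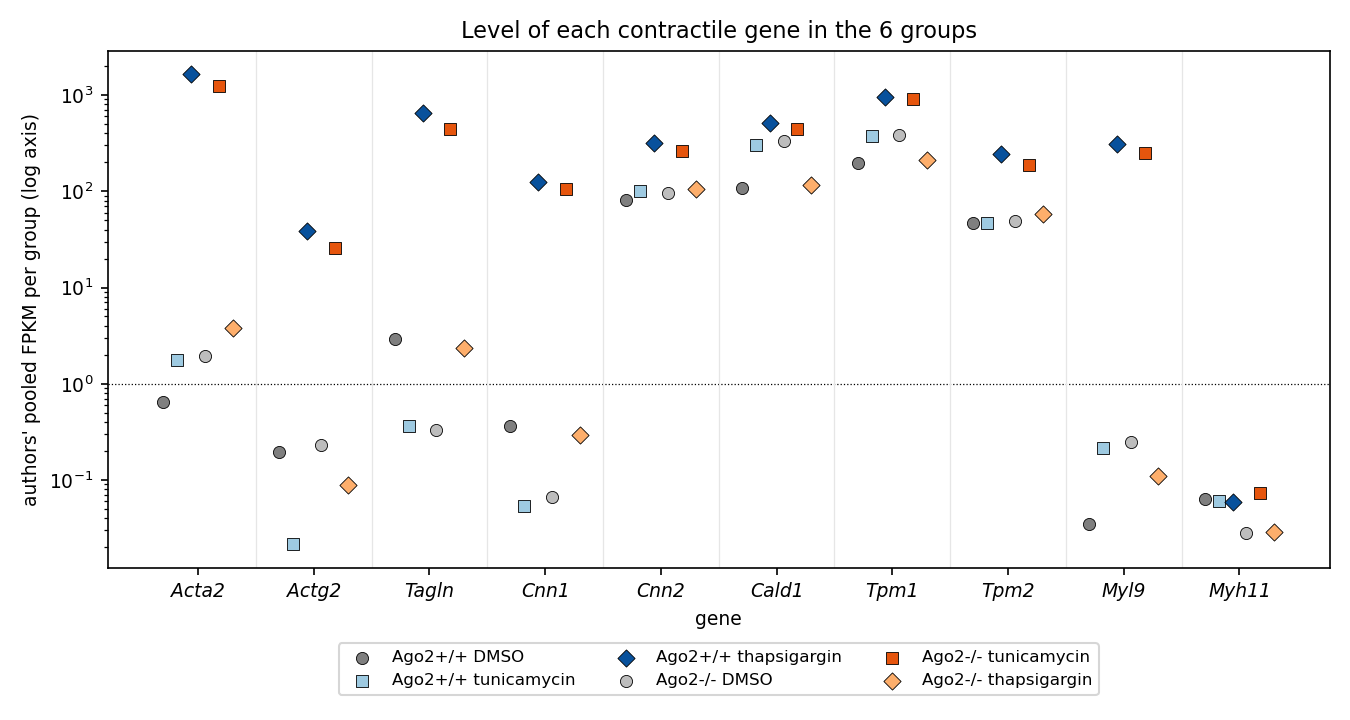
Level of the 10 contractile genes in the 6 groups, as the authors' pooled FPKM on a log axis, with 1 point per gene and group and the dotted line at 1 FPKM. Acta2, Actg2, Tagln, Cnn1 and Myl9 lay below 4 FPKM in 4 groups and above 25 in Ago2+/+ thapsigargin and Ago2-/- tunicamycin, while Cnn2, Cald1, Tpm1 and Tpm2 were above 46 FPKM in every group.

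Of the smooth muscle actins, Acta2 (chr19:34241090-34255590, minus strand, GENCODE M21 on GRCm38), which encodes alpha smooth muscle actin, reached the highest level of the 10 genes. It stood at 0.644 FPKM with DMSO, 1.75 with tunicamycin and 1644 with thapsigargin in the groups labelled Ago2+/+. In the Ago2-/- groups the values were 1.92 FPKM with DMSO, 1252 with tunicamycin and 3.77 with thapsigargin. Ranked by FPKM among all loci, it was number 34 in Ago2+/+ thapsigargin and number 40 in Ago2-/- tunicamycin, but number 12083 in Ago2+/+ DMSO. The next highest level after the 2 top groups was 332-fold below the lower of them. Actg2 (chr6:83512905-83536265, minus strand), the gamma actin of enteric smooth muscle, followed the same split at a much lower level, with 38.2 FPKM in Ago2+/+ thapsigargin and 25.6 in Ago2-/- tunicamycin. Its other values were 0.198 FPKM in Ago2+/+ DMSO, 0.0215 in Ago2+/+ tunicamycin, 0.229 in Ago2-/- DMSO and 0.0882 in Ago2-/- thapsigargin. Acta2 transcripts share 0.326% of their 50-base stretches with other genes, and those of Actg2 share none, so few reads could have been counted for both.

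Among the proteins that bind along actin filaments, Tagln and Cnn1 were nearly silent outside the same 2 groups, whereas Cnn2 and Cald1 were expressed in all 6. Tagln (chr9:45929619-45936058, minus strand), which encodes transgelin (SM22 alpha), an early marker of the smooth muscle lineage, had 2.90 FPKM with DMSO, 0.363 with tunicamycin and 648 with thapsigargin in the groups labelled Ago2+/+. In the Ago2-/- groups its level was 0.333 FPKM with DMSO, 444 with tunicamycin and 2.33 with thapsigargin. Below the 2 top groups its values fell into a pair below 0.4 and a pair above 2 FPKM, the latter being the groups with Xist. The deposited locus of Tagln reaches from 45838580 to 45936058 on chromosome 9, across neighbouring genes. Tagln is less certain than the others, since 58.3% of its 50-base transcript stretches recur in other genes, most of them in the antisense RNA Gm48529, and whether counting used the strand is not stated.

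Cnn1 (chr9:22099216-22109630, plus strand), or calponin 1, damps the ATPase of actin-activated myosin and marks differentiated smooth muscle. It stood at 0.361 FPKM with DMSO, 0.0538 with tunicamycin and 126 with thapsigargin in the groups labelled Ago2+/+, against 0.0663 with DMSO, 105 with tunicamycin and 0.292 with thapsigargin in the groups labelled Ago2-/-. The lower of its top values was 290-fold above the next, and its promoter window held no CArG-like box. Cnn2 (chr10:79988584-79996062, plus strand), a calponin found in many motile cells, had 80.4 FPKM with DMSO, 101 with tunicamycin and 319 with thapsigargin in the groups labelled Ago2+/+, and 95.0, 260 and 106 FPKM in Ago2-/- DMSO, tunicamycin and thapsigargin. Its range from lowest to highest level was 3.97-fold, and its window held an exact CArG box. Of the other 5 genes with a window, Acta2 and Myl9 were nearly silent in 4 groups and held boxes, while Tpm1, Tpm2 and Cald1 were expressed in all groups and held none.

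Cald1 (chr6:34598500-34775473, plus strand) encodes caldesmon, which blocks myosin binding to actin and has both muscle and non-muscle forms, and it did not share the plain split. Its level was 109 FPKM with DMSO, 304 with tunicamycin and 512 with thapsigargin in the groups labelled Ago2+/+, and 332 with DMSO, 446 with tunicamycin and 116 with thapsigargin in the groups labelled Ago2-/-. The 6 values fell into 3 levels, each made of a pair of groups named above, and the lower of the top values was only 1.34-fold above the next. The antisense genes Npn2, Gm14547 and the lincRNA Gm13861 overlap Cald1 on the other strand, and none of them exceeded 3.76 FPKM in any group.

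The tropomyosins, which lie along the actin filament and set which myosins may use it, were abundant in all groups. Tpm1 (chr9:67022590-67049406, minus strand) had 199 FPKM with DMSO, 378 with tunicamycin and 945 with thapsigargin in the groups labelled Ago2+/+, and 386 with DMSO, 912 with tunicamycin and 212 with thapsigargin in the groups labelled Ago2-/-. Like Cald1 it took 3 levels, and the 2 top groups differed by less than for any other gene of the 10 with a mean of at least 1 FPKM. Tpm2 (chr4:43514711-43523765, minus strand) had 47.0 FPKM with DMSO, 46.8 with tunicamycin and 242 with thapsigargin in the groups labelled Ago2+/+, and 49.2, 188 and 57.5 FPKM in Ago2-/- DMSO, tunicamycin and thapsigargin. Its 4 lower groups were close together, so it resembled Cnn2 rather than Tpm1. Gene values of this kind do not tell muscle from non-muscle splice forms of Tpm1, Tpm2 or Cald1.

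The myosin subunits went separate ways. Myl9 (chr2:156775420-156781658, plus strand), the regulatory light chain whose phosphorylation starts smooth muscle contraction, stood at 0.0346 FPKM with DMSO, 0.213 with tunicamycin and 312 with thapsigargin in the groups labelled Ago2+/+. In the Ago2-/- groups it had 0.251 FPKM with DMSO, 252 with tunicamycin and 0.110 with thapsigargin. All 4 lower values were below 1 FPKM, and the lower of its top values was 1005-fold above the next, that of Ago2-/- DMSO. Myh11 (chr16:14194535-14291372, minus strand), the smooth muscle myosin heavy chain and the most specific marker of mature smooth muscle, was between 0.0280 and 0.0730 FPKM in all 6 groups. The highest of these was in Ago2-/- tunicamycin, and at such levels the order of the groups cannot be read. The groups rich in Acta2 thus did not express the myosin motor of differentiated smooth muscle at a level that these values can show.

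The same split appeared for Acta2 with Actg2, Tagln, Cnn1 and Myl9 when they were set against their own protein families. Cnn2 was counted among the other calponins, and Cald1 was not set against a family. Acta2 and Actg2 together made up 29.5% of the summed FPKM of 5 actin genes in Ago2+/+ thapsigargin and 27.7% in Ago2-/- tunicamycin. In the other 4 groups their share lay between 0.0480% and 0.187%. The cytoplasmic actins were not lower there, since Actb was at 1768 and 1530 FPKM in those 2 groups against 867 to 1383 in the others. Actg1 likewise stood at 2245 and 1812 FPKM against 886 to 1240. Tagln took 60.1% and 56.1% of the transgelin total, with its relative Tagln2, against at most 2.05% elsewhere.

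Cnn1 supplied 18.4% of the calponin total in Ago2+/+ thapsigargin and 17.6% in Ago2-/- tunicamycin, with at most 0.148% in the other groups. Myl9 supplied 25.0% and 22.7% of the regulatory light chains, the remainder being Myl12a and Myl12b, and at most 0.0307% elsewhere. Tpm1 and Tpm2 together ranged more narrowly, from 32.8% of the tropomyosins in Ago2+/+ DMSO to 60.5% in Ago2-/- tunicamycin. Myh11 never passed 0.0388% of the myosin heavy chains, in which Myh9, the main non-muscle motor, was at 298 and 275 FPKM in the 2 top groups and at 108 to 187 FPKM in the others.

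**Figure D3:**
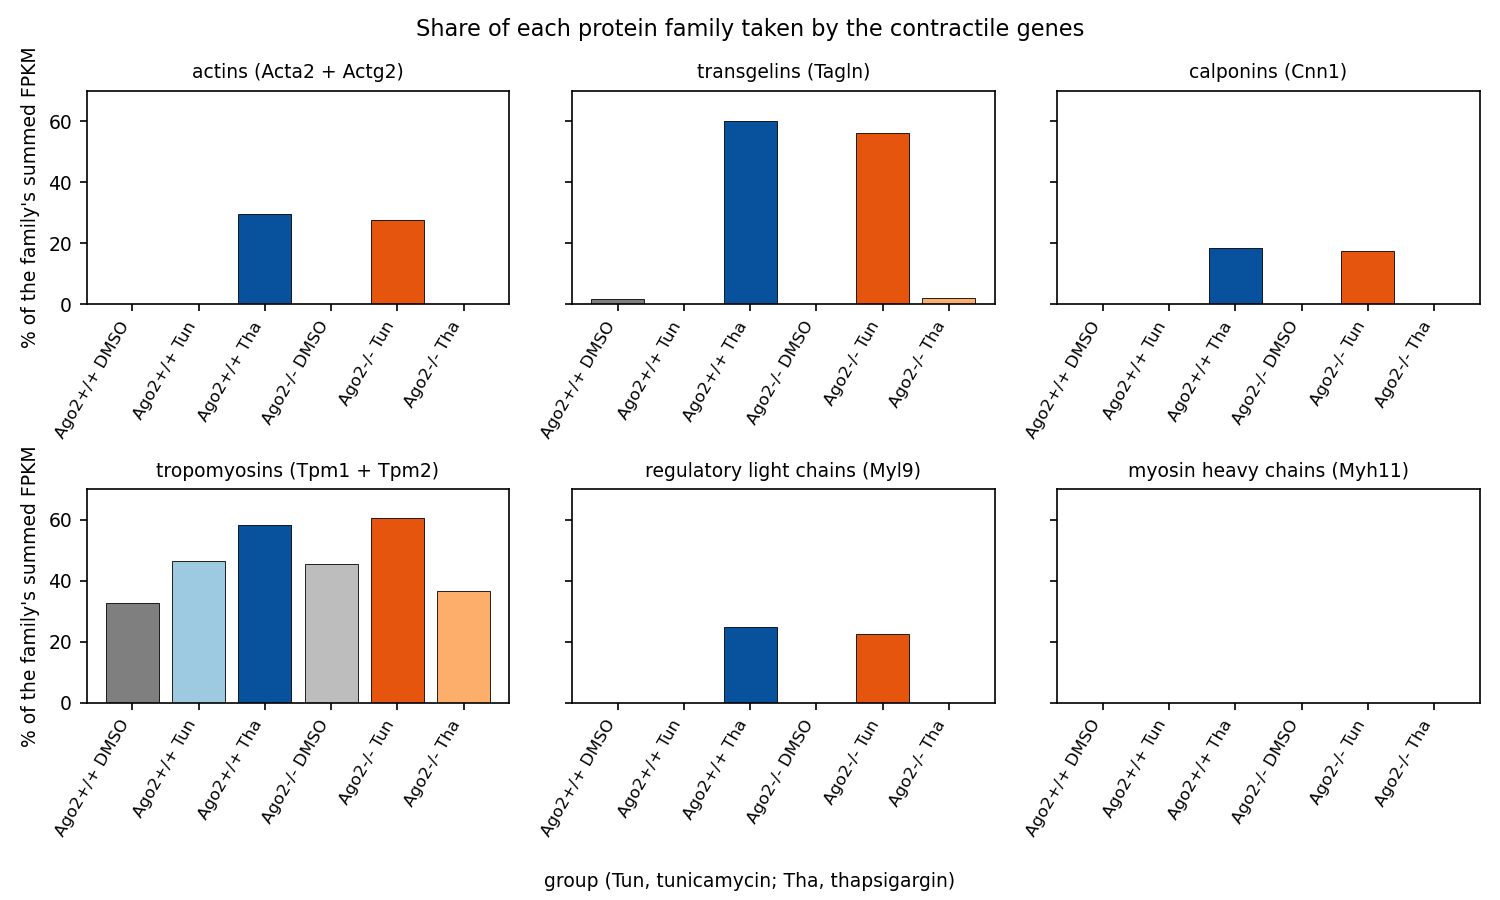
Share of the summed FPKM of each protein family that came from the contractile genes named in the panel title, in percent, by group, with every bar starting at 0. Only the tropomyosins have a sizeable share in all 6 groups, and the myosin heavy chains stay below 0.04% in each of them.

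The groups labelled thapsigargin and tunicamycin were compared with the DMSO group of the same labelled genotype. Ddx3y, Xist or both also differed between the groups of each such comparison, as given above. Treatment and a difference of cells therefore cannot be told apart in these ratios. Differences are given as log2 ratios of FPKM + 1, and a gene was counted as higher or lower when it differed at least 2-fold on that scale. In Ago2+/+ thapsigargin against Ago2+/+ DMSO, 9 of the 10 genes were higher and none lower, with a median log2 ratio of 3.69, while of all 11929 loci 7.44% were higher and 5.46% lower, with a median of 0.01. The largest log2 differences were those of Acta2 at 9.97, Myl9 at 8.24 and Tagln at 7.38, and Myh11 differed by -0.01. In Ago2-/- thapsigargin against Ago2-/- DMSO the same agent went with 1 gene higher, Tagln with a log2 ratio of 1.32, and 1 lower, Cald1 at -1.51. The median there was 0.08, against a background of 6.31% of loci higher and 7.99% lower. The counts for groups labelled with the same 500 nM treatment thus differed between the 2 genotype labels. That difference was not tested, since it has no replicate values behind it.

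For tunicamycin the high count lay under the other genotype label. In Ago2-/- tunicamycin against Ago2-/- DMSO, 8 of the 10 genes were higher and none lower, with a median log2 ratio of 3.17, and 9.50% of all loci were higher and 8.36% lower. Acta2 differed by 8.74 and Tagln by 8.38 on the log2 scale, whereas Cald1 at 0.42 and Myh11 at 0.06 stayed within 2-fold. In Ago2+/+ tunicamycin against Ago2+/+ DMSO, Cald1 was higher by 1.47 and Tagln lower by a log2 ratio of -1.52, and the other 8 genes were within 2-fold. The median was 0.11, with 7.70% of all loci higher and 6.32% lower.

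The labelled genotypes were compared at each treatment. Here too Ddx3y, Xist or both differed between the groups of each comparison. Labelled genotype and a difference of cells therefore cannot be told apart. With DMSO, Ago2-/- against Ago2+/+ had 1 gene higher, Cald1 by 1.60, and 1 lower, Tagln with -1.55, among 7.99% of loci higher and 6.38% lower. With tunicamycin, 8 genes were higher and none lower in Ago2-/-, with a median log2 ratio of 3.34, against 9.39% and 7.92% of loci. With thapsigargin, 9 genes were lower and none higher in Ago2-/-, with a median of -3.66, against 8.19% of loci lower and 5.58% higher. The direction of the labelled genotype difference was thus opposite between the 2 stressors. These 7 comparisons reuse the same 6 values of each gene, so they are different views of 1 pattern and not separate evidence for it.

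**Figure D4:**
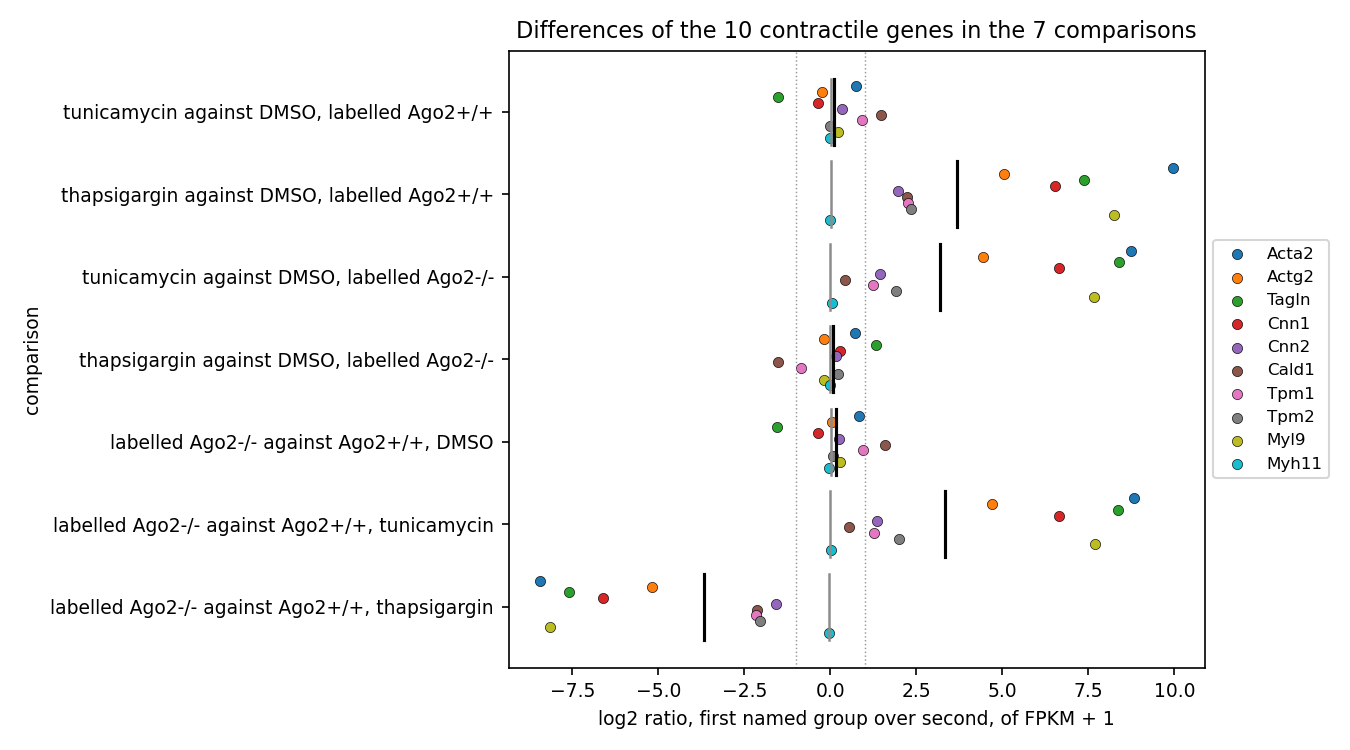
Log2 ratio of FPKM + 1 of the 10 contractile genes in the 7 comparisons, first named group over second; each point is a gene, black bars are the medians of the 10 genes, grey bars the medians of 11929 loci, and dotted lines mark 2-fold. In 4 comparisons the median of the genes lies beyond 3 in size, and in the other 3 it lies between 0.08 and 0.15.

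Across the labels, the groups of a pair resembled each other in these genes. Between Ago2+/+ thapsigargin and Ago2-/- tunicamycin all 10 genes were within 2-fold, as were most loci, of which 0.486% were higher and 0.511% lower in Ago2+/+ thapsigargin. By any amount, 9 of the 10 genes were higher in Ago2+/+ thapsigargin, with a median log2 ratio of 0.30, the most for Actg2 at 0.56 and Tagln at 0.55. The share of all loci higher by any amount was not counted. The spread behind differences of this size is unknown. Over all loci the median was 0.00. Between Ago2+/+ tunicamycin and Ago2-/- DMSO all 10 were again within 2-fold, where 0.469% of loci were higher and 0.570% lower. Between Ago2-/- thapsigargin and Ago2+/+ DMSO, Acta2 was the exception, higher by a log2 ratio of 1.54 at levels of 3.77 and 0.644 FPKM, where 0.939% of loci were higher and 0.931% lower.

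Other genes of smooth muscle were read from a list of 22. Of these, 15 had a mean of at least 1 FPKM. Among the 15, 12 had their 2 highest values in the same 2 groups as the contractile genes, beside 26.0% of loci with that mean. Lmod1 reached that mean only through those 2 groups, so the filter fixed its place in the count. Over all 22 genes the count was 17, which includes genes below that mean, whose order of groups is uncertain. In Ago2+/+ thapsigargin against DMSO, 9 of the 15 were at least 2-fold higher and 1 lower, with a median log2 ratio of 2.002, beside 7.44% and 5.46% of all loci. In Ago2-/- tunicamycin against DMSO, 8 were higher and 1 lower, with a median of 1.64, beside 9.50% and 8.36%. The other 2 comparisons with DMSO gave 5 higher and 3 lower for tunicamycin in Ago2+/+, beside 7.70% and 6.32% of loci, and 3 higher and 3 lower for thapsigargin in Ago2-/-, beside 6.31% and 7.99%.

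Lmod1, leiomodin, which nucleates actin filaments in smooth muscle, had 5.34 FPKM in Ago2+/+ thapsigargin and 4.92 in Ago2-/- tunicamycin, and at most 0.0313 in the other groups. Tgfb1i1 (Hic-5), an adhesion protein that takes part in smooth muscle gene regulation, stood at 89.5 and 74.6 FPKM in those 2 groups. Unlike Acta2 it was also present in the pair with Xist, at 15.2 FPKM in Ago2+/+ DMSO and 18.3 in Ago2-/- thapsigargin, and it stayed at or below 0.0769 FPKM in Ago2+/+ tunicamycin and Ago2-/- DMSO. Fhl1, a LIM domain protein of muscle, had the same 3 levels, with 162 and 117 FPKM, then 23.4 and 9.42, then 0.0518 and 0.0672.

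Some other genes of this list did not follow the contractile genes, and Smtn followed them only over a narrow range. Des, desmin, the intermediate filament of muscle, was highest in Ago2+/+ DMSO at 2.95 FPKM and in Ago2-/- thapsigargin at 2.58, and did not pass 0.50 elsewhere. Mylk, the kinase that phosphorylates Myl9, had its highest level, 1.55 FPKM, in Ago2-/- thapsigargin, and stood at 0.309 and 0.547 FPKM in the 2 groups rich in Myl9. Smtn, smoothelin, ranged from 23.6 to 45.6 FPKM with its 2 highest values in the same groups as Acta2. Fhl2 and Npnt, a coactivator of muscle genes and a matrix ligand of integrin, were highest in Ago2+/+ tunicamycin, at 69.7 and 21.6 FPKM. With Myh11, this leaves the high groups with actin, light chain, calponin and transgelin but without desmin or the smooth muscle heavy chain at comparable levels.

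The cytoskeletal relatives of the contractile genes and the genes of stress fibres and adhesions showed the pattern in part. Of 11 cytoplasmic relatives with a mean of at least 1 FPKM, 9 had their 2 highest values in the same 2 groups, the exceptions being Tpm3 and Myl12b, and of 12 stress fibre and adhesion genes 8 did, beside 26.0% of all loci. Tagln2 is among the 9 by a near tie, with 346.7 FPKM in Ago2-/- tunicamycin and 346.5 in Ago2-/- DMSO. Zyx, zyxin, which gathers at strained stress fibres, stood at 320 and 274 FPKM there against 73.4 to 97.4 in the others, and the filament crosslinker Actn1 at 254 and 205 against 101 to 137. Palld, palladin, had 44.1 and 43.5 FPKM, then 22.4 and 21.9 in the pair with Xist and 8.30 and 6.10 in the remaining pair. Actn4, Lasp1, Pxn and Tes did not share the pattern, with Tes at 103 and 111 FPKM in Ago2+/+ tunicamycin and Ago2-/- DMSO and at 61.3 and 52.6 in the groups rich in Acta2.

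Srf, Mkl1 and Mkl2 covered a narrower range of levels than the contractile genes. Srf was at 28.1 FPKM in Ago2+/+ thapsigargin and 23.4 in Ago2-/- tunicamycin, and between 15.1 and 16.3 in the other groups. Mkl1, whose protein moves to the nucleus when actin polymerises, was at 33.7 and 27.2 FPKM against 14.9 to 17.8. Mkl2 ranged only from 7.15 to 8.54 FPKM, and Myocd, the coactivator found in heart and smooth muscle, did not pass 0.148 FPKM in any group. Klf5 and Klf4, zinc finger factors that can oppose or accompany the smooth muscle program, were highest in Ago2+/+ tunicamycin, at 38.8 and 27.5 FPKM. Next came Ago2-/- DMSO, at 38.2 and 23.2 FPKM. They stood at 7.23 and 8.71 FPKM in Ago2+/+ thapsigargin and at 6.76 and 10.6 in Ago2-/- tunicamycin. In the pair with Xist, where Acta2 was low, Klf5 stood at 12.8 and 13.8 FPKM and Klf4 at 9.43 and 12.3. Low levels of these factors were thus not particular to the groups rich in Acta2. Of the 12 regulators with a mean of at least 1 FPKM, 3 had their 2 highest values in the groups rich in Acta2, the third being Tead3, a factor of the family that binds MCAT elements, at 24.8 and 24.9 FPKM. That share was close to the 26.0% of all loci, so the count says nothing particular of the regulators.

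**Figure D5:**
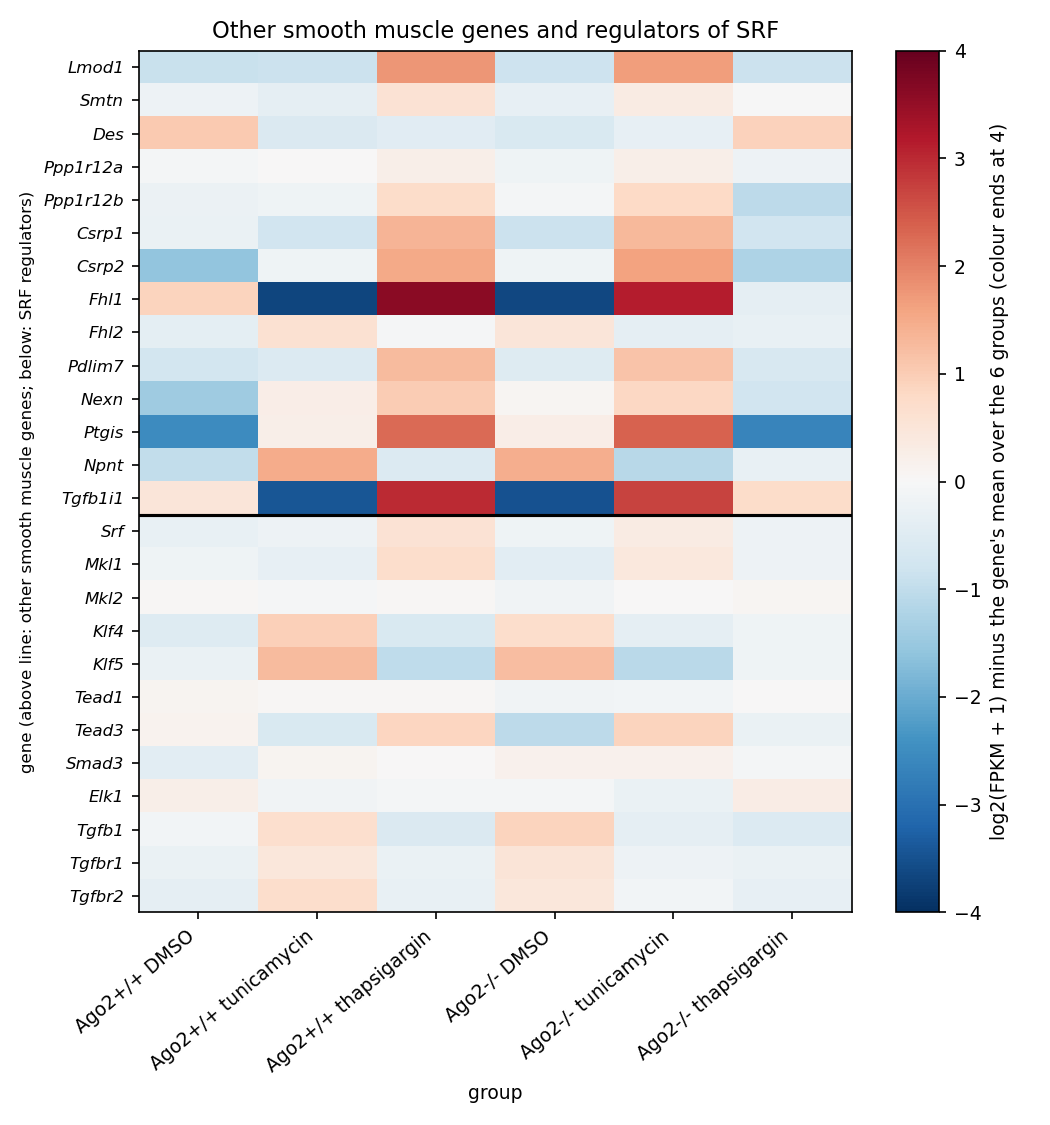
Log2(FPKM + 1) of each gene minus its own mean over the 6 groups, for 14 other smooth muscle genes (above the line) and 12 regulators of SRF activity and related factors (below), all with a mean of at least 1 FPKM. Fhl1 and Tgfb1i1 have the widest range, with their highest values in Ago2+/+ thapsigargin and Ago2-/- tunicamycin, and Mkl2 varies least of Srf, Mkl1 and Mkl2.

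Markers of other cell types were read beside the contractile genes. The 6 pericyte markers summed to 45.7 FPKM in Ago2+/+ thapsigargin and 45.4 in Ago2-/- tunicamycin, against 6.94 to 18.7 in the other groups. Most of that was Mcam at 35.5 and 34.8 FPKM, while the defining marker Rgs5 did not pass 0.210 FPKM and Kcnj8 and Abcc9 did not pass 0.0628. The 5 epithelial markers summed to 16.0 and 12.1 FPKM in those groups and at most 3.61 elsewhere, nearly all of it Krt19, with Epcam at or below 0.0977. The 11 fibroblast markers summed to 2437 and 2578 FPKM there against 3428 to 3629 in the others, and 5 of the 8 with a mean of at least 1 FPKM had their 2 highest values in those 2 groups, beside 26.0% of all loci. Of these, Col1a1 was at 521 and 651 FPKM against 5.97 to 112, and Postn, a matrix protein of activated fibroblasts, at 4.77 and 10.1 FPKM against at most 0.0251. Postn reached the mean of 1 FPKM only through those 2 groups, so the filter fixed its place in the count. Vim went the other way, at 1181 and 952 FPKM against 1290 to 2634. So did the locus that holds S100a4 together with S100a3 and Gm42674, at 285 and 330 FPKM against 937 to 1967. The part of these cell type markers in the levels of the contractile genes was not tested.

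The loci nearest in pattern to each gene were sought among 7244 other loci whose mean reached 10 FPKM and that hold 1 gene symbol, by the distance between log2 profiles over the 6 groups after each profile's mean was subtracted. A distance of 0 means the same profile. Grb10, an adaptor of growth factor receptors, was the nearest to Acta2, at a distance of 2.001, to Tagln at 1.43 and to Myl9 at 0.59. It stood at 205 FPKM in Ago2+/+ thapsigargin and 223 in Ago2-/- tunicamycin, and at most 0.176 in the other groups. The elastic fibre protein Fbln5 was the nearest to Cnn1 at 0.67, and the Y-linked gene Eif2s3y, listed at 0 in 4 groups, was the nearest to Actg2 at 0.45. Grb10, Fbln5 and Eif2s3y reached the mean of 10 FPKM only through those 2 groups, so the filter had a part in these likenesses.

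For the genes expressed in all groups the distances were smaller. This distance grows with a gene's own range, so these distances cannot be compared with those of the genes above. Cnn2 was nearest to the matrix gene Fbln2, at a distance of 0.17, followed by Zyx at 0.27 and Pdlim7 at 0.37. Tpm1 was nearest to Wisp1 at 0.14, Tpm2 to Msrb3 at 0.41, with Pdlim7 again in its list at 0.45, and Cald1 to Rnd3, which loosens stress fibres, at 0.30. Among the 10 genes themselves the closest profiles were Cnn2 and Tpm2, at 0.61, and Tpm1 and Cald1, at 0.76, while Acta2 was nearest to Myl9, at 1.60. These likenesses rest on 6 values each, taken from the same 6 groups, and carry no test.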

How the data were processed

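RNA from 18 libraries, 3 for each of 6 labelled groups, was sequenced. According to the submitters' processing notes and the methods of the study, reads were checked with FastQC 0.11.7, aligned to the mouse genome (build GRCm38) with HISAT2 2.1.0, assembled with StringTie 1.3.4d and quantified with Cuffdiff 2.2.1. The deposited FPKM is 1 estimate per locus and group that the authors pooled over libraries, for 51499 loci. The table also holds the authors' own fold changes, test statistics, p and q for all 15 pairs of groups, which were not used. No count or library value was used, no test was run, and depth is unknown.

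Differences were computed here as log2 ratios of FPKM + 1 (pandas 2.3.3, NumPy 2.4.6) and checked on simulated data. Loci whose mean over the 6 groups reached 1 FPKM served as background. Groups follow the library titles. The 10 genes and the 10 other lists were chosen with earlier results of these data known, and the family shares and the count of genes with their 2 highest values in the same groups were added after the values were seen. Of each list, up to 6 genes were named, the 3 with the highest and the 3 with the lowest log2 ratio of the 2 groups with the highest summed FPKM of the 10 genes over the other 4, besides Srf, Myocd, Mkl1, Mkl2, Actb, Actg1, Des, Lmod1, Mylk, Smtn and Ago2 as genes that define a role. For 1 gene of the lists no value is reported here. Ddx3y, Xist, Tagln2, Myl12a, Myh9, Actn4, Thy1, Lum, Rgs5, Kcnj8, Abcc9, Epcam and Adgre1 were named after their values were seen, as label checks, family relatives, exceptions or defining markers. Overlaps and shared 50-base stretches come from GENCODE M21, and promoters from RefSeq GRCm38.p6. Alternatives were another pseudocount or none, a filter on low genes, centring, upper-quartile scaling and a 4-fold limit.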

Additional observations from a re-analysis of the deposited data

How the results depend on the processing

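All 21 summaries (the median log2 ratio and the counts of genes at least 2-fold higher and lower in 7 comparisons) were recomputed under each alternative, and no median beyond 2-fold changed its direction. Of 140 recomputed values, 109 stayed close to the reported value and 31 moved further. A count was close when within 1.5 times of the reported count. A median was close when it differed from the reported log2 ratio by no more than the log2 of 1.5. None moved with centring, with upper quartiles set equal, or with loci of 1 gene symbol, a limit that all 10 genes met. With a pseudocount of 0.1 FPKM, with none, and for genes with a mean of at least 1 FPKM, the median became 4.69, 4.98 and 5.03 for thapsigargin in Ago2+/+, and 4.11, 4.37 and 4.43 for tunicamycin in Ago2-/-. In the same order it became 4.86, 5.74 and 4.70 for Ago2-/- against Ago2+/+ with tunicamycin, and -4.91, -5.14 and -5.17 with thapsigargin. The filter on the mean removed only Myh11. Cnn1, Myl9 and Actg2 passed it only through the groups where they are high, so its medians are no separate support. Counts that were 1 grew when genes under 1 FPKM were no longer damped by the pseudocount. For tunicamycin in Ago2+/+, 3 genes were higher and 3 lower with 0.1 FPKM and with none. For thapsigargin in Ago2-/-, 2 were higher with either and 3 lower with none. For Ago2-/- against Ago2+/+ with DMSO, 3 were higher with either, and 2 lower with 0.1 FPKM and 3 with none. At 4-fold those counts fell to 0, and 5 genes were higher for tunicamycin in Ago2-/- and for Ago2-/- against Ago2+/+ with tunicamycin.

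No paired analysis was possible because the table holds 1 pooled value per group, and for the same reason no replicate was left out. Values far below 1 FPKM rest on few fragments, so ratios against them are uncertain in size.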

Other observations

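Tnnt2 and Myf5, from a list of 10 markers of striated muscle, had their highest values in other groups than Acta2. Tnnt2, cardiac troponin T, stood at 56.4 FPKM in Ago2+/+ tunicamycin and 65.8 in Ago2-/- DMSO, and at most 3.30 in the other groups. Myf5, an early factor of the skeletal muscle lineage, was at 18.9 and 11.8 FPKM in those 2 groups and was listed at 0 in the other 4. The later skeletal muscle factors Myod1 and Myog did not pass 0.0201 FPKM, and the heart genes Myh6, Myh7 and Nkx2-5 did not pass 0.150. Of the 10 markers, Tnnt2 and Myf5 had a mean of at least 1 FPKM, and of the other 8, Nkx2-5 had its 2 highest values, 0.150 and 0.0928 FPKM, in the same groups as Acta2. Myod1, Myog, Myh6, Myh7 and Nkx2-5 were named after their values were seen.

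Among the macrophage markers, Cd14, a receptor for bacterial lipopolysaccharide that fibroblasts can also make, was highest in the same 2 groups as Tnnt2, at 14.4 and 16.7 FPKM against 2.40 to 5.60 in the others. Cspg4 (NG2), a pericyte proteoglycan, was nearly absent there, at 0.0199 and 0.0307 FPKM, against 5.81 to 9.73 in the other 4 groups, and so did not follow Acta2.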
